A study of Rattus norvegicus with 6 samples.

Results

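The genes described here encode the myosin heavy chains, myosin light chains and myosin binding proteins of striated muscle. They were chosen by gene symbol from a list of 10 genes, Myh1, Myh2, Myh4, Myh7, Myl1, Myl2, Myl3, Mylpf, Mybpc1 and Mybpc2. Of the 15388 genes with a row in the count tables, 6 were on this list, namely the heavy chain gene Myh1, the light chain genes Myl1, Myl3 and Mylpf, and the binding protein genes Mybpc1 and Mybpc2. Myh2, Myh4, Myh7 and Myl2 had no row under these symbols and were not analysed here. RNA-seq libraries had been made from polyA+ RNA of whole thyroid tissue of adult Sprague-Dawley rats, 3 from non-pregnant (NP) rats and 3 from late pregnant (LP) rats on day 18, the day of the vaginal plug being day 1. No transgene, diet or drug was named for either group, and the labels did not say whether a library came from 1 animal or how the gland was freed from the tissue around it. The list was drawn up with the difference between LP and NP already known, so that difference is given below as a description of these genes. Where a count of them past the criteria is given, it states where they stand in the fit over all genes and is no test of the list.

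Myosin is the motor of the thick filament of the sarcomere. A myosin molecule is a pair of heavy chains, whose heads split ATP and pull on actin, and each head carries an essential and a regulatory light chain on its neck. Myosin binding protein C lies along the thick filament and tunes how the heads engage actin. Fast and slow muscle fibres use different genes for each of these parts. Follicular cells of the thyroid do not build sarcomeres, and their contractile machinery is made of non-muscle myosin, while the vessels of the gland contain smooth muscle myosin. Strap muscles of the neck lie directly over the gland.

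The promoters of these genes are shown because 5 of the 6 genes were higher in LP together. RefSeq sequences of the assembly GRCr8 were used, as windows of 300 bases that run from 250 bases before the start site to 50 bases from the start site on. A window was found for 9 of the 10 listed genes, and for all 6 genes with counts. Mylpf was matched through its older symbol, since RefSeq lists it as Myl11. Myl1 had a window for each of its start sites, which give the long and the short form of the fast essential light chain. Capitals mark matches on either strand to CAGCTG (a form of the E-box CANNTG that MyoD family factors bind), CATTCC (the site known as M-CAT), TATAAA (the TATA box) and the MEF2 motif. The windows printed are those of the heavy chain gene, of both starts of Myl1, and of the binding protein genes Mybpc1, which was higher in LP, and Mybpc2, which was not.
Myh1, chr10:52384662-52384961, plus strand: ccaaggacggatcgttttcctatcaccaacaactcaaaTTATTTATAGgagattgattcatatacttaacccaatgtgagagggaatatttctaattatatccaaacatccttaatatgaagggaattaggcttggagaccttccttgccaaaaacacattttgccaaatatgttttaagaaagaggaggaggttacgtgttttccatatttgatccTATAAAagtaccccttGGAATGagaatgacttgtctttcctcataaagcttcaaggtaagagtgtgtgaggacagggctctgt
Myl1, start of the long form, chr9:75907647-75907946, minus strand: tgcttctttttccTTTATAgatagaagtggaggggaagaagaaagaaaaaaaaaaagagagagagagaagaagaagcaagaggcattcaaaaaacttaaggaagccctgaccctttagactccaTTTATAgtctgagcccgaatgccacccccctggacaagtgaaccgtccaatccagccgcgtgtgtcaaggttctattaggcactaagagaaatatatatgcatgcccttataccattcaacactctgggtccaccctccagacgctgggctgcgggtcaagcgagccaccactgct
Myl1, start of the short form, chr9:75897750-75898049, minus strand: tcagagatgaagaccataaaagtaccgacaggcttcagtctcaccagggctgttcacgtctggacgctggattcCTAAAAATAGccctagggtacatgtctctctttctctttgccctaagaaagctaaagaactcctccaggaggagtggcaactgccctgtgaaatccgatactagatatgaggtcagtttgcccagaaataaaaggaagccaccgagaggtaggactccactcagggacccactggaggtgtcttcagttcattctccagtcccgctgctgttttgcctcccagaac
Mybpc1, chr7:24903324-24903623, minus strand: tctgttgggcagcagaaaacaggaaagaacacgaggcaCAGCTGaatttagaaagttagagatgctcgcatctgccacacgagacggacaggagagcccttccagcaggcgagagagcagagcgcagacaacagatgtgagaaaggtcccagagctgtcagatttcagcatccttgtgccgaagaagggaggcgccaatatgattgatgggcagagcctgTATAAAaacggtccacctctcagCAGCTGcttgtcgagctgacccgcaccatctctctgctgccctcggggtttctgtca
Mybpc2, chr1:104154052-104154351, minus strand: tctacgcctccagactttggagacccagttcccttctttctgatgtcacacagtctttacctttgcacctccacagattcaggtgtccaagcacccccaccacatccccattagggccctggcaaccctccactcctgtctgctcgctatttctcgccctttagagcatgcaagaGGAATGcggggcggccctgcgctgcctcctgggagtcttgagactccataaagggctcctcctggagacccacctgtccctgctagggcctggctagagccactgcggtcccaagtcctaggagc

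The 10 windows of the listed genes, including those without counts, did not all share a motif. The MEF2 motif was found in 3 of the 10 windows, against 3.29% of the 33469 promoter windows of the same length in the RefSeq table. It lay 212 bases before the start of Myh1, 196 bases before that of Myh4 and 176 bases before the short form of Myl1. In Myh1 and Myh4 it overlaps a TATAAA match. CAGCTG was found in 4 of the windows (Myh4, Myh7, Mylpf and Mybpc1), against 15.1% of all windows, and CATTCC also in 4 (Myh1, Myh4, Myl3 and Mybpc2), against 14.2%. TATAAA was found in 5, against 14.2%. A match began 33 bases before the start site in Myh1 and 30 bases before it in Mybpc1 and in Myh2, which had no counts. CANNTG, which includes CAGCTG, was found in 8, against 72.1%. The Mybpc2 window held a CATTCC match and 2 CANNTG matches and none of the other motifs. These are matches of letters and not sites known to be bound in the thyroid, and the windows of the neighbouring heavy chain genes Myh1, Myh2 and Myh4 may share sequence by descent.

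**Figure D1:**
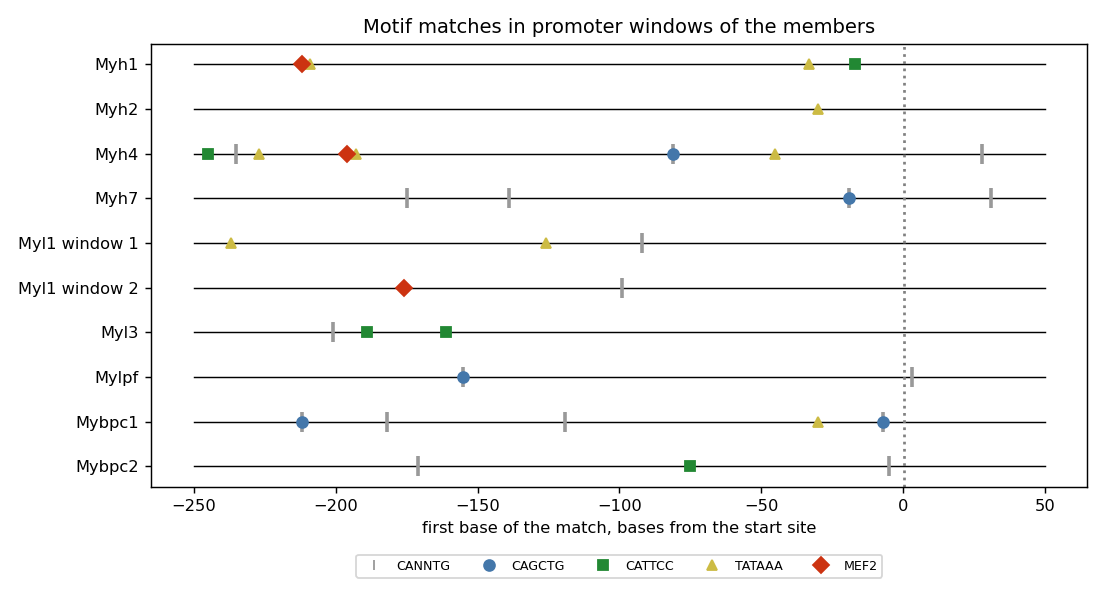
Motif matches in the promoter windows of 9 of the listed genes, with the first base of each match on the x axis in bases from the start site (dotted line). MEF2 matches (red diamonds) stand in the windows of Myh1, Myh4 and the second start of Myl1, and no motif is in all 10 windows.

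The depth behind each value was between 2752144 and 3449857 counted reads per library. A count of 0 in a library allows a level of up to 3 reads, which lay between 0.87 and 1.09 counts per 1000000 reads (CPM) and covers counting error only. Between NP replicates 2 and 3 the counts varied only as much as sampling noise does (chi-square 1.02 per degree of freedom, genes of 10 or more reads), and this held for LP replicates 2 and 3 too (0.995). They were counted as 1 sample in each mean ± SD, so that n = 2 for each group. The edgeR model over all genes, used below, instead took all 6 libraries as separate samples. Its SE and p-values thus rest on n = 3 for each group and may be too small. Replicate 1 differed from the other replicates of its group, with chi-square values between 3.70 and 4.11. Genes of smooth muscle took part in that difference. The 6 smooth muscle markers other than Des, which skeletal muscle expresses as well, summed to 174 reads per 1000000 in NP replicate 1 against 1135 and 1058 in NP replicates 2 and 3, and to 130 in LP replicate 1 against 1052 and 985 in LP replicates 2 and 3. With Des the sums were 195, 1264 and 1183 in NP and 824, 1830 and 1731 in LP, so Des carried the higher LP sums. The study names 3 rats per group without tying each library to an animal, so p-values measure the spread between these libraries, which may be technical.

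Myh1 (ENSRNOT00000086599), a heavy chain of fast fibres, had 0 reads in each of the 3 NP libraries. In LP it had 119, 105 and 109 reads. The LP level was 34.9 ± 4.4 CPM (SD, n = 2). Against 3 reads in each NP library, the limit that a count of 0 allows, Myh1 was at least 32.6-fold higher in LP. Every LP library thus lay above every NP library, with LP replicate 1 the highest of the 3. On GRCr8 Myh1 lies in a row of 6 heavy chain genes, Myh3, Myh2, Myh1, Myh4, Myh8 and Myh13, of which Myh1 was the only gene with a row in the tables used here. These genes are close copies of each other, and the RefSeq table gives Myh1 as an older symbol of Myh2 as well. How reads that match several of them were treated is not given in the sources used here, so the share of the Myh1 reads that came from its neighbours is uncertain.

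Myl1 (ENSRNOT00000017838), the essential light chain of fast fibres, was the gene of this group with some reads in NP and many in LP. It had 1, 3 and 1 NP reads against 438, 445 and 469 LP reads. Its level rose from 0.506 ± 0.21 to 138 ± 3.1 CPM (SD, n = 2). The edgeR model over all genes gave a log2 fold change of 7.83, with a standard error (SE) of 0.17. The ratio of the summed reads, 1352 in LP against 5 in NP and scaled by the library totals, was 232, with a 95% counting interval from 99.1 to 715. The width of the interval comes from the 5 NP reads. Without NP replicate 2, which held 3 of them, the log2 fold change was 8.48. The 3 LP libraries lay between 132 and 140 CPM, the narrowest relative spread among these genes.

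Myl3 (ENSRNOT00000028458), the essential light chain shared by slow fibres and the cardiac ventricle, had 0 reads in each NP library and 23, 26 and 31 reads in the LP libraries. Its LP level was 7.90 ± 0.78 CPM, at least 7.78-fold higher than in NP. Mylpf (ENSRNOT00000023944), the regulatory light chain of fast fibres, had 0 reads in each NP library as well. It had 9, 15 and 13 reads in LP, or 3.51 ± 0.90 CPM, at least 3.59-fold higher. Both groups were apart for both genes, but the LP counts of Mylpf were so low that the gene did not pass edgeR's filter on low counts.

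The binding protein genes went separate ways. Mybpc1 (ENSRNOT00000079235), the slow form of myosin binding protein C, had 0 reads in each NP library and 37, 50 and 44 reads in LP. Its LP level was 12.9 ± 1.5 CPM, at least 12.7-fold higher than in NP. Mybpc2 (ENSRNOT00000067754), the fast form, had 0, 1 and 3 NP reads against 0, 1 and 1 LP reads. The NP and LP libraries of Mybpc2 overlapped, all at or under the level of 3 reads, and the ratio of the summed reads was 0.429, with a counting interval from 0.0388 to 2.99. No difference in Mybpc2 was detectable at this depth.

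**Figure D2:**
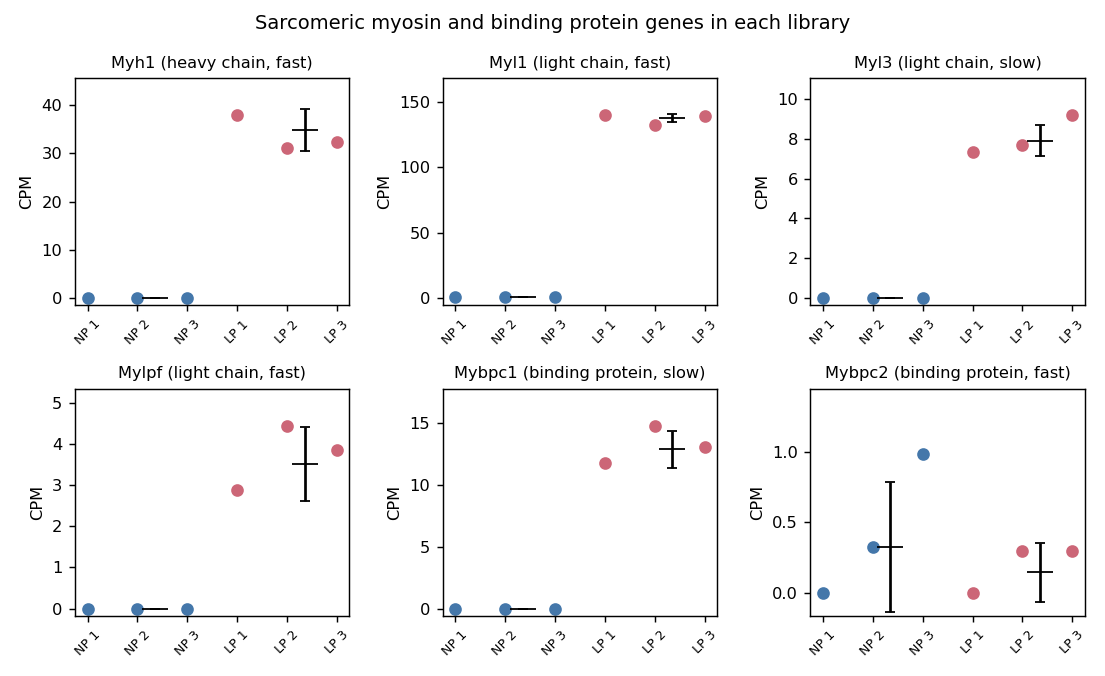
Level of each gene in each library in CPM (linear axes of different height), with NP in blue and LP in red. Black bars show the mean ± SD with replicates 2 and 3 counted as 1 sample (n = 2). Myh1, Myl3, Mylpf and Mybpc1 are at 0 in each NP library and above 0 in each LP library, Myl1 rises from at most 0.983 to at least 132 CPM, and the groups overlap for Mybpc2.

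The counts near 0 need care. Some genes that such tissue uses heavily had next to no reads in all 6 libraries. Myh9, the non-muscle myosin heavy chain of most cells, had at most 2 reads, whereas its relative Myh10 had between 554 and 693. Col1a2 had at most 3 reads, whereas Col1a1, the other chain of type I collagen, had between 850 and 3540. In LP the fast fibre gene Casq1, the calcium store protein of the sarcoplasmic reticulum, had 0, 2 and 1 reads, whereas Atp2a1, the calcium pump of the same membrane, had 3825, 3745 and 3782. A count near 0 in these tables, Mybpc2 included, is therefore not a measure of absence. Myh9, Col1a2 and Casq1 were chosen for this comparison after their values were seen.

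Of the 6 genes, 4 passed the filter, and each of the 4 was higher in LP past the criteria (more than a 2-fold difference and adjusted p below 0.05). The same held for 4.90% of the 11738 genes tested, with 0.537% lower and 5.44% in either direction. In 5 of the 6 genes, Mybpc2 being the exception, every LP library was above every NP library, which was so for 18.5% of all 15388 genes and 21.1% of those tested, while in 18.9% of those tested every LP library was below every NP library. Without the filter Mylpf was past the criteria too, against 4.40% of all genes. The genes were listed because of this contrast, so nothing is read from these counts. Over all 15388 genes, 303 had 0 reads in each NP library, and 14 of these had at least 100 reads in the sum of the LP libraries. Myh1 and Mybpc1 were among the 14, and so were Lmod3, Smyd1 and Trim55, which belong to lists described below.

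Among themselves the genes kept steady proportions across the LP libraries. The 6 genes summed to 626, 642 and 667 reads in LP replicates 1, 2 and 3, or 194, 186 and 193 reads per 1000000, with exact 95% binomial intervals from 179 to 210, from 172 to 201 and from 179 to 209. The intervals overlap. The same sum was 1, 4 and 4 reads in the NP libraries. Of the LP reads on these genes, 70.0%, 69.3% and 70.3% fell on Myl1, and 19.0%, 16.4% and 16.3% on Myh1. The slow genes Myl3 and Mybpc1 together took 9.58%, 11.8% and 11.2%, with the lowest and highest exact limits at 7.39% and 14.6%. These are shares of reads and not of transcripts, because transcript lengths were not at hand, so levels were not compared between genes. The reads were aligned to an older assembly than the one the gene models belong to, and whether reads of single genes were lost by this was not tested, for these shares as for the counts near 0.

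Other sarcomeric myosin genes were then examined from a list of 11, of which 6 had a row. Myl4, the light chain of the atrium and of developing muscle, had 1, 0 and 3 NP reads against 38, 56 and 53 LP reads. Its log2 fold change in edgeR was 4.93 (SE 0.43). Myl4, near 0 in NP, passed the filter through its LP counts alone. The list was also drawn up with these data known, so the value is a description and no test. The ratio of its summed reads was 31.5, with a counting interval from 12.0 to 117, and without NP replicate 3 its log2 fold change was 6.14. Myh7b, a heavy chain related to the slow and cardiac forms, was the sarcomeric heavy chain with clear counts in NP. It had 92, 105 and 107 NP reads against 152, 168 and 153 LP reads, or 33.8 ± 1.3 against 48.1 ± 0.68 CPM. Its log2 fold change, 0.49 (SE 0.09, adjusted p = 0.000689 by edgeR), was below the cutoff of 2 in fold change, and Myh7b was not among the genes past the criteria. Mybph, a smaller relative of the binding proteins, had 0 reads in NP and 7, 8 and 4 in LP, at least 1.86-fold higher and below the filter. The cardiac genes Myl7 and Mybpc3 had at most 1 read in any library, and Myh15 at most 2.

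**Figure D3:**
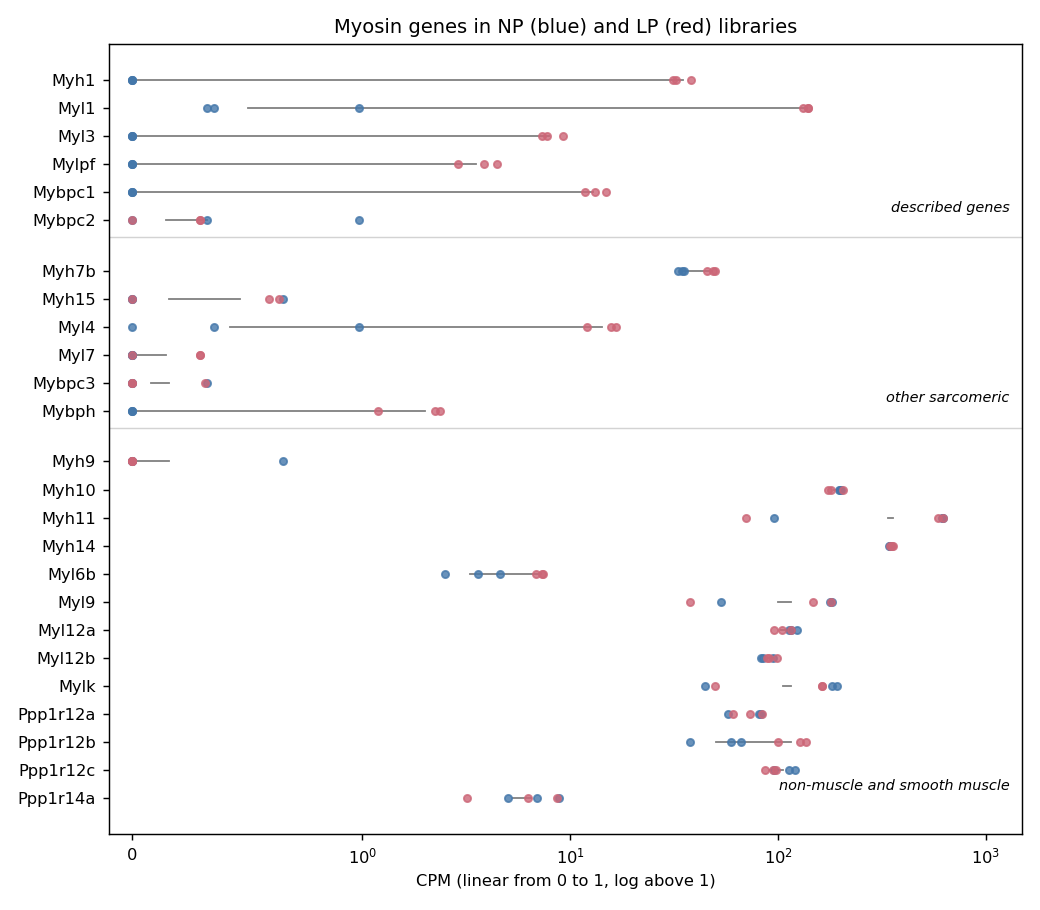
Level of each myosin gene in each library in CPM, on an axis that is linear from 0 to 1 and logarithmic above 1, with NP in blue, LP in red and a grey line between the group means. The NP and LP points of Myh1, Myl1, Myl3, Mylpf, Mybpc1 and Myl4 are far apart, those of Myh7b lie close without overlap, and Myh11, Myl9 and Mylk have 1 low library in each group.

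Myosins outside the sarcomere were examined as well. The list of non-muscle and smooth muscle myosin chains and their kinase and phosphatase held 14 genes, of which 12 were tested. Of these, 1 was past the criteria, against 5.44% of all genes tested. A count of 1 among 12 is near that share, so nothing is read from it. By adjusted p below 0.05 (edgeR) alone the count was 3, against 27.0% of all genes tested. The median log2 fold change was -0.07, against -0.01 over all genes tested. Myh14, a non-muscle heavy chain of epithelia, was at 345 ± 3.5 CPM in NP and 353 ± 1.9 CPM in LP (log2 fold change 0.04, SE 0.05). Myh10, another non-muscle heavy chain, was at 198 ± 0.61 and 185 ± 6.8 CPM. Myh11, the smooth muscle heavy chain, had 266, 1872 and 1897 NP reads against 220, 2110 and 1990 LP reads. Myh11 was low in replicate 1 of both groups, and its fitted log2 difference, -0.05 (SE 0.56), turned to 0.25 without NP replicate 2. The gene past the criteria, named after its value was seen, was Ppp1r12b, a targeting subunit of myosin phosphatase found in striated muscle (log2 fold change 1.15, SE 0.14). Without NP replicate 1 its value was 0.95, under the cutoff, and 0 genes of the list were left past the criteria. Myl6b, a light chain gene of the list and also named after its values were seen, was just under the cutoff. It had 7, 11 and 14 NP reads against 23, 23 and 25 LP reads (log2 fold change 0.99, SE 0.28).

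Genes that act on or beside sarcomeric myosin were mostly higher in LP. Of 14 listed kinases, chaperones and partners of the M-band, 13 had a row, 10 were tested and 10 were higher in LP past the criteria. The share over all genes tested was 4.90%. Listed genes at or near 0 in NP passed the filter through their LP counts alone. The list was also drawn up with these data known, so nothing is read from the count. The median log2 fold change was 7.33, or 6.07 with the 2 genes at 0 in NP taken at their lower bound. Myom3, a myomesin that cross-links thick filaments, had 4, 4 and 1 NP reads against 486, 439 and 461 LP reads. Trim54, a ubiquitin ligase of the sarcomere, had 2, 0 and 1 NP reads against 417, 421 and 391 LP reads. Hspb7, a small heat shock protein of heart and skeletal muscle, was measured well in both groups and rose from 14.2 ± 1.4 to 165 ± 7.8 CPM. Smyd1, a methyltransferase needed for thick filament assembly, had 0 NP reads in each library and 160, 164 and 169 LP reads, and Trim55 had 0 in NP and 29, 39 and 32 in LP. The other 3 with a row had too few reads for the filter. Myom1, the main myomesin of the M-band, had 0, 6 and 7 NP reads against 0, 10 and 5 LP reads, with overlap between the groups. Myom2, its fast fibre relative, had 0 NP reads against 2, 1 and 1 LP reads, and Mylk3, the cardiac light chain kinase, 1, 1 and 0 against 3, 9 and 3.

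Of 16 thin filament genes, against which myosin works, 14 were tested and 10 were higher in LP past the criteria, against 4.90% of all genes tested. Blocked on the replicate number, the count past the criteria was 11. The median log2 fold change was 6.93, or 6.17 with Lmod3 at its bound. Nothing is read from these counts either, for the same reasons. Neb, the nebulin ruler of the thin filament, had 27, 21 and 30 NP reads against 3990, 4114 and 3963 LP reads (log2 fold change 7.12, SE 0.09). Tnnc2, the fast calcium sensor troponin C, had 22, 14 and 26 NP reads against 4554, 4532 and 4641 LP reads. Tpm2, a tropomyosin of muscle, had 10, 613 and 615 NP reads against 702, 1248 and 1263 LP reads. The fitted value of 1.24 (log2) was not past the criteria (adjusted p = 0.0761 by edgeR). With the replicate block the adjusted p of Tpm2 was 3.87e-145 by edgeR, a value that rests largely on counting noise. With replicates 2 and 3 summed and the block kept, the adjusted p was 1.64e-06 by edgeR. Without NP replicate 1 the log2 fold change of Tpm2 was 0.68. Acta1, the actin of skeletal muscle and named after its values were seen, had 0, 166 and 144 NP reads against 0, 186 and 185 LP reads.

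Other fast and slow fibre genes were both represented. Of 11 fast fibre genes 10 were tested and 10 rose past the criteria, against 4.90% of all genes tested. The median log2 fold change was 6.52. Genes of these lists near 0 in NP passed the filter through their LP counts alone, so nothing is read from the counts. Atp2a1 had 10, 11 and 13 NP reads against the LP counts given above (log2 fold change 8.22, SE 0.09), and Actn3, the fast Z-disc actinin, rose by 6.10 on the log2 scale. Tnnc2 and Tnnt3, the fast troponin T, belong to this list too. Of 11 slow fibre genes, Myh7b among them, 10 had a row, 7 were tested and 5 rose past the criteria, against the same 4.90%. The median log2 fold change was 6.22. Myh7b and Tpm3 were the tested genes of this list that were not past the criteria. Tnnc1, the slow and cardiac troponin C, had 1, 4 and 1 NP reads against 399, 408 and 392 LP reads. Tpm3, a slow tropomyosin that other cells also use, moved by 0.49 (SE 0.08), and Atp2a2, the calcium pump of slow fibres and of many other cells, by 1.06 (SE 0.10), which fell to 0.94 and below the cutoff without NP replicate 1. The fast and slow lists share genes with the other muscle lists, and the difference between them was not tested.

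The factors that drive myosin genes were examined in a list of 11 myogenic regulators. Of these 6 were tested, and 1 was past the criteria, against 5.44% of all genes tested. Mef2c, whose family binds the MEF2 motif shown in capitals above, rose from 23.3 ± 0.94 to 109 ± 7.4 CPM (log2 fold change 2.22, SE 0.08, adjusted p = 1.21e-12 by edgeR). Mef2d had 148, 163 and 197 NP reads against 293, 303 and 290 LP reads (log2 fold change 0.65, SE 0.08), and Mef2a was at 0.52 on the same scale (SE 0.10). Other factors were few in reads. Myod1 had 0 NP reads against 1, 2 and 0 LP reads, and Pax7, the marker of satellite cells, 0 in NP and 3, 5 and 3 in LP.

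**Figure D4:**
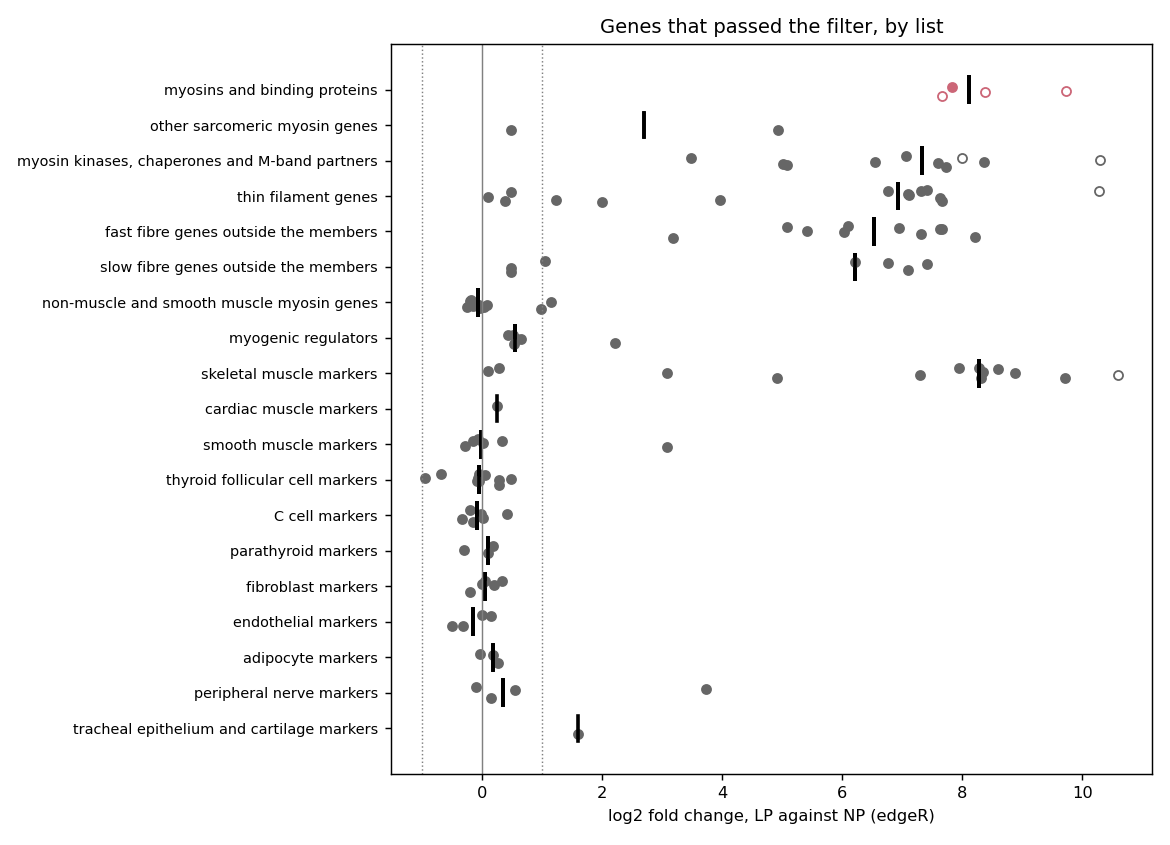
Log2 fold change of LP against NP in the edgeR model for each gene that passed the filter, by list, with the median as a black bar and dotted lines at a fold change of 2. Open points are genes with 0 reads in each NP library, whose values depend on how 0 is treated. Myl1, the filled red point, lies at 7.83 beside the other lists of striated muscle, whereas the list of non-muscle and smooth muscle myosins has its median at -0.07.

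Markers of other cells were read beside these results. Of 15 skeletal muscle markers outside the myosins 13 had a row and were tested. Of these, 11 rose past the criteria, against 4.90% of all genes tested. The markers were chosen with these data known, so nothing is read from the count. The median log2 fold change of the 13 markers was 8.28, or 7.94 with Art1 at its bound. Their summed level was 28.7, 199 and 182 reads per 1000000 in the NP libraries and 2957, 3015 and 2974 in the LP libraries. Without Des it was 7.63, 70.1 and 57.5 in NP and 2264, 2236 and 2228 in LP. Most NP reads came from Des, the muscle filament protein desmin, which smooth muscle expresses too, with 58, 382 and 369 NP reads against 2236, 2685 and 2570 LP reads. Actn2, the actinin of the Z-disc, had 2, 2 and 6 NP reads against 1453, 1502 and 1500 LP reads. Acta1 and Pygm, glycogen phosphorylase of muscle, were the members of the list that were not past the criteria, and both were at 0 in replicate 1 of each group. Ckm and Mb had no row under these symbols. The part of muscle tissue in the myosin values was not tested, and in such bulk samples more cells of a type and more RNA per cell cannot be told apart.

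The tissue carried the markers of a thyroid in both groups. The 10 follicular cell markers, led by thyroglobulin (Tg), summed to between 237850 and 253675 reads per 1000000 in NP and between 235983 and 250431 in LP, and 0 of the 10 were past the criteria, while 5 had an adjusted p-value below 0.05 by edgeR, as did 27.0% of all genes tested. The sum was almost all Tg. Slc5a5, the iodide transporter, had 946, 1077 and 1028 NP reads against 566, 602 and 591 LP reads (log2 fold change -0.94, SE 0.05). Tshr, the receptor for thyrotropin, had 990, 949 and 961 against 681, 693 and 639 (log2 fold change -0.68, SE 0.07). Both were lower in every LP library than in every NP library. The other 3 with an adjusted p-value below 0.05 went the other way, with every LP library above every NP library. They were Nkx2-1, Duox2 and Duoxa2, with log2 fold changes of 0.28 (SE 0.06), 0.29 (SE 0.08) and 0.48 (SE 0.10). All of these were named after their values were seen. With DESeq2 in place of edgeR 0 were past the criteria as well. Of the 1 cardiac marker that could be tested, Tnnt2, the log2 fold change was 0.25, and the other 5 with a row were below the filter. For C cells (6 tested), parathyroid (3), fibroblasts (5), endothelium (4) and adipocytes (3) 0 of the tested markers were past the criteria, against 5.44% of all genes tested. By adjusted p below 0.05 (edgeR) alone the counts were 2, 1, 1, 2 and 0 in that order. A count of 0 past the criteria therefore does not mean that these markers were unchanged. Among 6 tested smooth muscle markers Des alone was past the criteria, and among 4 tested nerve markers 1 was. Of the tracheal and cartilage markers the 1 tested, Scgb1a1, an airway secretory protein, was too, with a log2 fold change of 1.60.

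**Figure D5:**
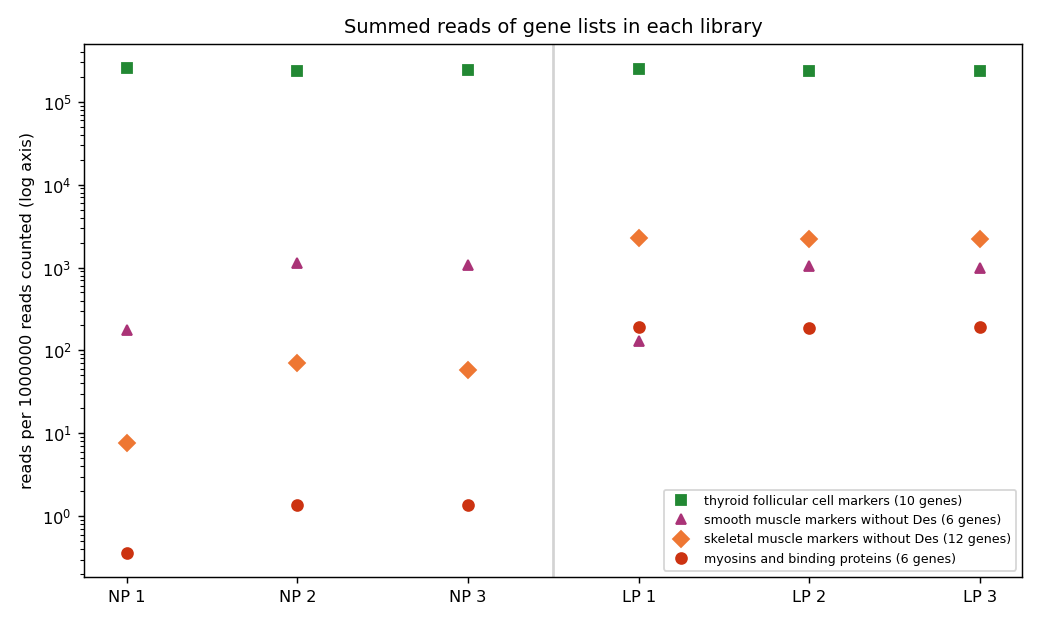
Summed reads of 4 lists in each library, per 1000000 reads counted, on a log axis, with Des left out of both muscle lists. The myosins and binding proteins lie at 1.35 or lower in NP and between 186 and 194 in LP, the skeletal muscle markers between 2228 and 2264 in LP, the smooth muscle markers are lowest in replicate 1 of each group, and the thyroid follicular markers lie between 235983 and 253675 in all 6 libraries.

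The genes whose pattern was most like that of the summed myosins were found by the root mean square difference of log2(CPM + 0.5) across the 6 libraries, each profile being centred on its own mean. The nearest 5 were Tnnt3 (0.18), Rpl3l (0.25), Ankrd23 (0.36), Art1 (0.37) and Tbx15 (0.38). Tnnt3 had 3, 8 and 8 NP reads against 1453, 1436 and 1444 LP reads. Rpl3l, a ribosomal protein of striated muscle, had 0, 2 and 4 NP reads against 429, 419 and 412 LP reads. Ankrd23, a stretch-responsive ankyrin repeat protein of muscle, had 3, 4 and 5 NP reads against 543, 629 and 632 LP reads. Art1, an ADP-ribosyltransferase of muscle, had 0 NP reads against 202, 199 and 206 LP reads, and Tbx15, a T-box factor, 0, 3 and 4 against 359, 324 and 322 in LP. With a pseudocount of 2 in place of 0.5, 2 of these 5 genes were still among the nearest 5.

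Neighbouring genes on the chromosome were examined next. For each of the 6 genes the nearest protein-coding gene with a row was taken on either side, in the gene order of GRCr8. Of these 12 neighbours, 8 passed the filter on low counts and could be called, and 0 of the 8 were past the criteria. Over all genes tested 5.44% were past the criteria. A count of 0 among 8 is near that share, so nothing is read from it. Sco1 and Gas7, on either side of the heavy chain row, had log2 fold changes of 0.14 (SE 0.19) and 0.27 (SE 0.12). Acadl, an enzyme of fatty acid oxidation directly beside Myl1, had 267, 266 and 274 NP reads against 461, 489 and 481 LP reads (log2 fold change 0.68, SE 0.06), the largest value among the 8, and Lancl1 on the other side of Myl1 had -0.13 (SE 0.07). Pth1r beside Myl3 and Tbc1d10b beside Mylpf had -0.13 (SE 0.34) and 0.05 (SE 0.08).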

How the data were processed

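PolyA+ RNA of 6 rat thyroid samples (3 NP, 3 LP) was sequenced. The authors aligned reads to rn5 with TopHat 1.4.0, assigned them to Ensembl gene models with HTSeq, and deposited the raw read counts per gene. The Ensembl release named in their methods is later than the change of Ensembl to the next rat assembly, and how both were matched is not given in the sources used here, nor is the strand setting. This bears on the counts of single genes, those near 0 included.

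For LP against NP, the quasi-likelihood test of edgeR 4.0.16 (R 4.3.3, limma 3.58.1) was run after TMM scaling and edgeR's own low-count filter, and p-values of the 11738 genes left were adjusted by Benjamini-Hochberg. Past the criteria means more than a 2-fold difference and adjusted p below 0.05. The SE is the size of the log2 value over the root of F. Genes below the filter were taken from the fit without it. CPM values were scaled with TMM, and reads per 1000000 by library totals alone. A count of 0 in each NP library was taken as 3 reads per library for a lower bound. Depth lay between 2752144 and 3449857 reads per library.

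The genes and the lists were chosen with earlier results of these data known. The genes named in the text are all those of the list with a row, the other sarcomeric myosin genes with a row, up to 4 genes of each further list with the highest mean CPM over the 6 libraries, and the 5 genes most like the summed myosins. Some genes that this rule names are not reported here. Others are named where a count, bound or comparison turns on them, after their values were seen. The replicate numbers in the titles were checked for pairing. Same-numbered samples of NP and LP deviated together from their group means (correlations across genes of 0.493, 0.223 and 0.192), but replicates 2 and 3 did so whatever their number (0.216 for both crossed pairs). The replicate block was an alternative, beside each library left out, replicates 2 and 3 summed, other filters and normalizations, DESeq2 1.42.0 and stricter criteria. The steps were tested on simulated counts.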

Additional observations from a re-analysis of the deposited data

How the results depend on the processing

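Across the alternatives, between 2 and 5 of the myosin and binding protein genes were past the criteria, all higher in LP, as a description of genes listed for this contrast. The 2 were left by keeping genes that average 50 reads or more, which removes genes by its construction, and the count was 4 to 5 with each library left out. Under that choice the count over the 7943 genes left was 286 higher and 29 lower. That of the other sarcomeric myosin genes was 0, of the slow fibre genes 3, and of the nerve and the tracheal markers 0. When the test was for more than a 2-fold difference, 366 of 11738 genes were higher and 23 lower. Under this test 0 of the non-muscle and smooth muscle myosins and 0 of the tracheal markers were past the criteria. Without a filter, the other sarcomeric myosin genes and the myogenic regulators had 2 genes higher in LP past the criteria each, against 4.40% of all genes. With DESeq2 in place of edgeR the other sarcomeric myosin genes had 2 and the tracheal markers 0. The count of non-muscle and smooth muscle myosins was 0 to 2 with each library left out and 2 with replicates 2 and 3 summed. For the genes most like the myosins, a pseudocount of 2 kept 2 of the 5.

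With the replicate block, 4 of the myosin and binding protein genes were past the criteria, as without the block. Among the genes followed singly across the alternatives, the pairing moved the call of Tpm2 alone. Its log2 fold change went from 1.24 to 1.26, with an adjusted p of 3.87e-145 by edgeR. Some genes named in the text, such as Slc5a5, Tshr, Smyd1 and Acadl, were not followed singly. P-values with the block rest largely on counting noise, since the biological coefficient of variation fell from 0.0645 to 0.0131. With a library left out, values near 0 changed sign. Without NP replicate 2, NP replicate 3 or LP replicate 1, Myh11 was at 0.25, 0.27 and 0.44, and Mylk, at -0.16 over all libraries, at 0.14, 0.06 and 0.20. Their lowest values were -0.52 and -0.56. Acta1, at 0.11 over all libraries, was at -0.44 without NP replicate 1 and at -0.29 without LP replicate 2 or LP replicate 3, and 0.65 at its highest. The cause was not tested. The counts of Mybpc2, Mylpf and Mybph were too few for the filter, and the part of depth in this was not tested.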

Other observations

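Acta1 belongs to a small group of genes that were at 0 reads in replicate 1 of both groups and had at least 10 reads in each of the other 4 libraries. There were 7 such genes among the 15388, found after the counts were examined. Igfbp1, a binding protein of insulin-like growth factors, was counted 127 and 109 times in replicates 2 and 3 of NP, and 151 and 151 times in those of LP. Cyp26a1, an enzyme that clears retinoic acid, had 54, 39, 65 and 61 reads in the same libraries. Hoxa11, a homeobox gene of the limb and the reproductive tract, had 23, 27, 21 and 18. The others were Irg1, Mmp7 and Tmprss4, with at most 21 reads in a library. In each of these genes the NP and LP counts lay close together. Those of Myh1, Myl1, Myl3, Mylpf and Mybpc1 did not. These 5 genes were at 0 or near 0 in all NP libraries and present in LP replicate 1 as in LP replicates 2 and 3. Mybpc2 was at 0 in replicate 1 of both groups, with at most 3 reads in any library.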
